A study of Mus musculus with 36 samples.

Results

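The caveolin and cavin genes encode the coat of caveolae, and 5 of them were followed in mouse embryonic fibroblasts with and without PKB alpha. The set was Cav1, Cav2, Cavin1, Cavin2 and Cavin3 (the last 3 also written Ptrf, Sdpr and Prkcdbp), and its members were the probe sets that name exactly 1 of these genes. There were 9 such probe sets, 1 for Cav1, 2 for Cav2, 3 for Cavin1, 2 for Cavin2 and 1 for Cavin3, among 22690 probe sets, or 5 genes among 12393. The family was put together with the genotype difference in these arrays known, so its members were in effect chosen by that difference, which is described below without a test. All 5 genes passed the filter on low signal, but Cavin2 did so only through wild type, where it was high, since its mean signal in PKBa-/- was 92.8 and the filter lay at about 123.

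The study followed fibroblasts, connective tissue cells grown out of embryos 13.5 days old, over 5 times on 36 Affymetrix arrays. The cells came from intercrosses of mice heterozygous for PKBa and were kept in DMEM with foetal calf serum to between passage 15 and 20. The first genotype is wild type: 4 arrays stand for each of times 0, 6, 24 and 48, and time 2 has only replicates 1 and 2. The second, PKBa-/-, lacks Akt1, the gene of protein kinase B alpha, in the whole animal, and had the same numbers of arrays. The series speaks of DMEM-treated cells, while the culture protocol also describes an adipocyte induction medium with insulin, dexamethasone and a phosphodiesterase inhibitor. The labels do not say which of these media the arrays received, give no unit for the times, and do not say whether replicates were separate cultures or whether each genotype was more than 1 line. The p-values below therefore measure only the spread between arrays, which may be technical.

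Caveolae are small flask-shaped pits of the plasma membrane that are abundant in fibroblasts, adipocytes, endothelium and muscle, and that serve in membrane buffering, lipid handling and signalling. Caveolins are cholesterol-binding membrane proteins that oligomerise into the coat, while cavins are cytosolic proteins that assemble on it from outside and shape it. Caveolin-1 and cavin-1 are required for caveolae in non-muscle cells, caveolin-2 and cavin-2 assist in shaping them, and cavin-3 takes part in their traffic.

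The letters before the transcription starts are shown for the 3 genes whose course the results turn on: Cav1 and Cavin2, which moved in opposite directions in the 2 genotypes, and Cav2, the neighbour of Cav1 on chromosome 6. Each line gives the 250 bases before a start, 5′ to 3′, from RefSeq on GRCm38.p6, and capitals mark matches to the motifs named after it. No gene of the RefSeq table lies between Cav2 and Cav1.
Cav1, chr6:17306085-17306334, plus strand: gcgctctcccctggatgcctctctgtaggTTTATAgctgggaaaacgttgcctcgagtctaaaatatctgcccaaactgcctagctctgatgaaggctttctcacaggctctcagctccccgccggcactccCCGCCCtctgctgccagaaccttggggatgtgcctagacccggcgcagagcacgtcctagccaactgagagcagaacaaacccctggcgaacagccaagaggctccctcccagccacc
Cav2, chr6:17280935-17281184, plus strand: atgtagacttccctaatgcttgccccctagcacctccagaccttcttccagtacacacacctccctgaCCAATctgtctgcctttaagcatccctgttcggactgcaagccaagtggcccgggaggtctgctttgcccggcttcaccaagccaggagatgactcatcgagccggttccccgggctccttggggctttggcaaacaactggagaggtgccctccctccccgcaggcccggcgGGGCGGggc
Cavin2, chr1:51288876-51289125, plus strand: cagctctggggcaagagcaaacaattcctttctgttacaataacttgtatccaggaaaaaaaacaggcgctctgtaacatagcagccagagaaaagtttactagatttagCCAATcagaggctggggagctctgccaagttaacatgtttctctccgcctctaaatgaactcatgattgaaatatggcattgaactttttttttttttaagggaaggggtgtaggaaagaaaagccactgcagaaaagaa
In the Cav1 window the capitals are a TATA motif (TATAAA, read on the minus strand) that starts 221 bases before the start and a GC box (GGGCGG, minus strand) at 118 bases. In the Cav2 window they are a CCAAT box at 182 bases and a GC box at 9 bases. A second Cav1 start in RefSeq, with the window chr6:17307390-17307639, had no match to any motif searched. The Cavin2 window held a CCAAT box at 140 bases and no GC box. Of 32851 promoter windows of this length, 12.4% held TATAAA, 33.8% CCAAT and 32.7% GGGCGG on either strand. Neither the FoxO motif GTAAACA (in 3.17% of windows), the GATA motif AGATAA (9.99%) nor the CArG box of serum response factor (1.47%) was found in any window of the 4 members with an entry. A TEAD motif (GGAATG, 12.6% of windows) was found only in the windows of Cavin1. The motifs were chosen after the values had been seen, and a match describes letters, not a bound site.

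The arrays were alike in overall brightness, with medians between 134 and 145, and precision is limited by how many arrays there were. Akt1 itself separated the genotypes without overlap, with signals from 843 to 1395 in wild type and from 44 to 103 in PKBa-/-. Within a group, replicates 1 and 2 resembled each other, as did replicates 3 and 4 (mean correlation 0.993 inside these pairs and 0.969 between them). The fit treats the 4 arrays as replicates, and where averaging each pair first ended a call of a member's brightest probe set, that adjusted p is given beside it. For other genes pair averages are given, if at all, as counts over a list. An adjusted p printed alone for such a gene does not mean that its call held with pair averages. Signals below are those of the brightest probe set of a gene, listed for replicates 1 to 4 in order, and changes are differences of log2(signal + 32) ± SE from the limma fit, a scale that understates changes of dim genes. A gene passed where limma's moderated test gave an adjusted p under 0.05, with Benjamini-Hochberg adjustment over 7436 genes.

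Cav1, the caveolin that forms the core of the coat, rose in wild type and fell in PKBa-/-. Wild type arrays gave signals of 1407, 1251, 1323 and 1176 at time 0, then 1373 and 1304 at time 2 and 1608, 1496, 1776 and 1366 at time 6. They went on to 2303, 2180, 2227 and 2260 at time 24 and 2892, 2785, 2009 and 2385 at time 48. All 8 arrays of times 24 and 48 lay above every earlier wild type array. PKBa-/- arrays began higher, at 1728, 1742, 1650 and 1484 at time 0 and 1763 and 1678 at time 2, and then stood at 906, 915, 661 and 694 at time 6. Their later values were 966, 987, 672 and 753 at time 24 and 607, 727, 595 and 586 at time 48. From time 6 on no PKBa-/- array reached the lowest PKBa-/- array of times 0 and 2.

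In the fit, Cav1 in wild type changed by 0.94 ± 0.12 from time 0 to time 48 (adjusted p = 2.4e-07), by 0.79 ± 0.12 at time 24 (4.7e-06) and by 0.27 ± 0.12 at time 6, which did not pass (0.072, but 0.022 with the replicate number as a block). In PKBa-/- its change was -1.04 ± 0.12 at time 6 (adjusted p = 1.6e-08), -0.96 ± 0.12 at time 24 (1.6e-07) and -1.35 ± 0.12 at time 48 (1.1e-10), a fall at each. The difference between these changes was -1.31 ± 0.17 at time 6, -1.74 ± 0.17 at time 24 and -2.29 ± 0.17 at time 48 (adjusted p = 1.3e-06, 4.9e-09 and 7.9e-12). All of these calls held with pair averages, the first difference with an adjusted p of 0.037. The single Cav1 call that turned on 1 array was the change of wild type at time 6, which passed without wild type time 6 replicate 4 (adjusted p = 0.043).

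Cavin2, a cavin that helps to curve the caveolar membrane, took the same opposite courses from a much wider starting gap. Wild type signals were 1943, 1895, 1738 and 1796 at time 0, 1213 and 1404 at time 2 and 1987, 2197, 3602 and 3254 at time 6. They reached 3055, 2907, 4740 and 4448 at time 24 and 3582, 3981, 5175 and 4344 at time 48. Replicates 3 and 4 were the higher pair at each of the last 3 times, and both late groups lay above all arrays of time 0. PKBa-/- signals were 192, 237, 123 and 150 at time 0, 151 and 144 at time 2 and 48, 58, 42 and 43 at time 6. They stood at 110, 83, 56 and 59 at time 24 and at 35, 53, 45 and 41 at time 48. Every PKBa-/- array from time 6 on was below the lowest of time 0, and the genotypes did not overlap at any time.

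Cavin2 rose in wild type by 0.53 ± 0.18 at time 6 (adjusted p = 0.019, but 0.24 with pair averages), 0.99 ± 0.18 at time 24 (7e-05, 0.052 with pair averages) and 1.19 ± 0.18 at time 48 (4.8e-06). The first of these rested on replicates 3 and 4: it was 0.12 within replicates 1 and 2 (adjusted p = 0.38) and 0.94 within replicates 3 and 4, and it did not pass without wild type time 6 replicate 3 (0.097) or replicate 4 (0.076). In PKBa-/- Cavin2 fell, with changes of -1.35 ± 0.18 at time 6 (adjusted p = 2.4e-07), -0.93 ± 0.18 at time 24 (0.00016, 0.063 with pair averages) and -1.43 ± 0.18 at time 48 (1.7e-07). The changes differed between genotypes by -1.88 ± 0.25, -1.92 ± 0.25 and -2.62 ± 0.25 at times 6, 24 and 48 (adjusted p = 3.2e-06, 2.5e-06 and 4.1e-09), of which the first had an adjusted p of 0.054 with pair averages. The sizes of the falls and of these differences depend on the offset and on the array background, since PKBa-/- signals from time 6 on were close to both. Cavin2 was also among the tested genes only through its wild type signal. The p-values of its falls and of these differences therefore describe signals against the spread between arrays, and are no evidence for a size. A second Cavin2 probe set, dimmer at 1290 ± 594 in wild type and 35.2 ± 13.7 in PKBa-/- (SD, n = 18 arrays each), gave the same directions. At time 48 it changed by 1.25 ± 0.19 in wild type (adjusted p = 7.9e-06) and by -0.66 ± 0.19 in PKBa-/- (0.0093). Its change in PKBa-/- at time 24, -0.47 ± 0.19, did not pass (0.072). These p-values come from a limma fit with every probe set as its own row. The PKBa-/- group means of this probe set ran from 54.93 at time 0 to 22.96 at time 48, at or below the level of Cav3 and Cavin4. It too was tested only through wild type, so its falls in PKBa-/- are no support for those of the first probe set.

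**Figure D1:**
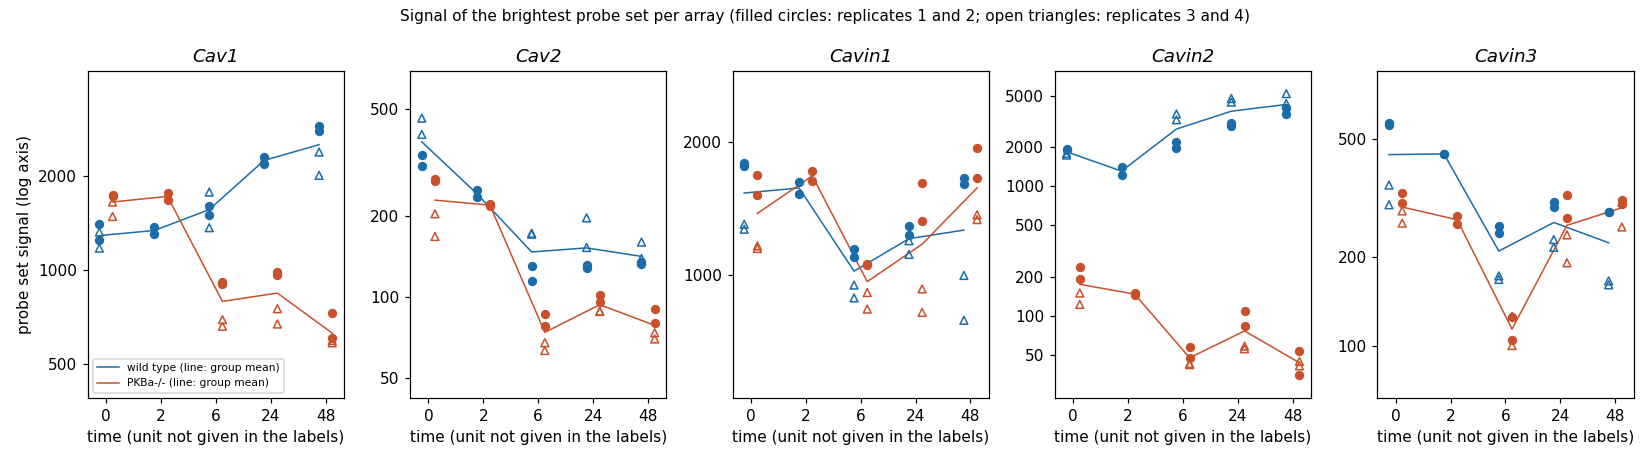
Signal of the brightest probe set of each gene (log axis) in every array against time, as evenly spaced categories, with wild type in blue and PKBa-/- in red. Circles are replicates 1 and 2, triangles replicates 3 and 4, and lines join group means: Cav1 and Cavin2 part after time 2, while Cav2 declines in both genotypes.

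At time 48, 44 of the 7436 tested genes (0.592%) both rose in wild type and fell in PKBa-/-, and Cav1 and Cavin2 were among them. The PKBa-/- signals of Cavin2 at that time were close to the offset and to the array background. By size, Cav1 had the 8th lowest difference between genotypes in the change at time 48 and the 33rd lowest change in PKBa-/-. Within wild type Cavin2 ranked 43rd and Cav1 92nd from the top at time 48. The background of calls at time 48 was 11.1% of genes up and 17.6% down in wild type, and 14.3% up and 15% down in PKBa-/-. The difference between genotypes passed for 5.63% of genes in the direction of Cav1 and Cavin2.

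**Figure D2:**
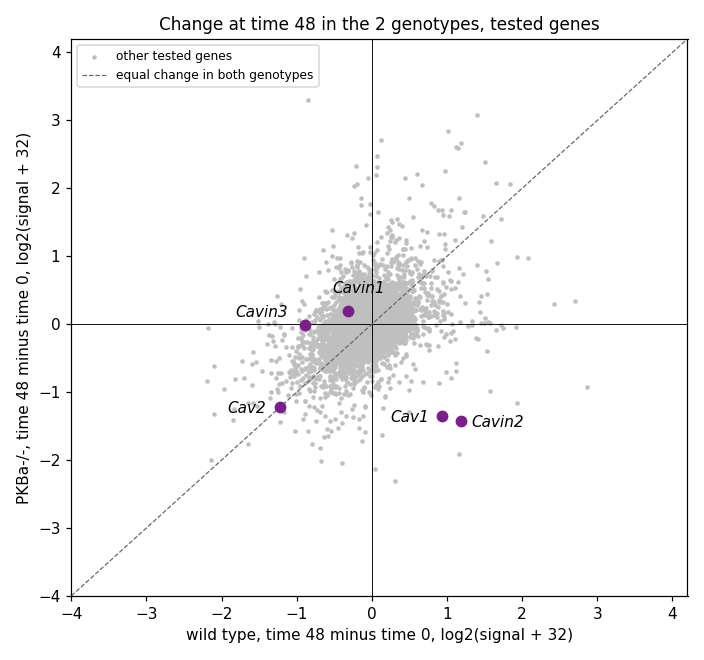
Change from time 0 to time 48 in wild type (horizontal) and PKBa-/- (vertical) for each tested gene, in log2(signal + 32), with the 5 caveolin and cavin genes in purple. Cav1 and Cavin2 lie at the lower right, Cav2 lies on the line of equal change at the lower left, and Cavin1 and Cavin3 lie near the horizontal axis.

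Cav2, which assembles with caveolin-1, did not share the rise of Cav1 in wild type: it fell in both genotypes to a similar extent. Its wild type signals were 338, 309, 464 and 403 at time 0, 236 and 250 at time 2 and 114, 131, 172 and 173 at time 6. They remained at 132, 128, 153 and 197 at time 24 and 133, 135, 161 and 139 at time 48. The times from 6 on overlap each other and lie below times 0 and 2. In PKBa-/- the signals were 271, 276, 204 and 168 at time 0, 218 and 222 at time 2, and 78, 87, 68 and 63 at time 6. They were 96, 102, 89 and 89 at time 24 and 91, 80, 70 and 74 at time 48. Here too every array from time 6 on lay below all arrays of times 0 and 2.

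In wild type Cav2 fell, with changes of -1.19 ± 0.13, -1.15 ± 0.13 and -1.23 ± 0.13 at times 6, 24 and 48 (adjusted p = 1.1e-08, 3.4e-08 and 1e-08). In PKBa-/- the changes were -1.29 ± 0.13, -1.04 ± 0.13 and -1.22 ± 0.13 (adjusted p = 1.7e-09, 2.3e-07 and 6.7e-09), and all 6 calls held with pair averages. The difference between these changes was 0.00 ± 0.18 at time 48 (adjusted p = 1), and it was -0.09 ± 0.18 at time 6 and 0.12 ± 0.18 at time 24. At time 48 Cav2 was the 44th lowest change in wild type and the 46th lowest in PKBa-/-. Its second probe set stayed dim, between 58.1 and 95.4 over all arrays, and was not tested.

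Cavin1, the cavin that caveolae cannot form without, passed in the fit at time 6 and at no other single time. Wild type signals were 1768, 1789, 1267 and 1301 at time 0, 1524 and 1620 at time 2, and 1098, 1142, 885 and 947 at time 6. They then lay at 1230, 1290, 1111 and 1193 at time 24 and 1608, 1656, 996 and 788 at time 48. Replicates 1 and 2 exceeded replicates 3 and 4 in each group of 4 arrays. PKBa-/- signals were 1519, 1679, 1162 and 1146 at time 0, 1717 and 1633 at time 2, and 1054, 1056, 911 and 835 at time 6. At time 24 they were 1614, 1326, 821 and 928, and at time 48 they were 1657, 1933, 1333 and 1366. The group means were lowest at time 6 in both genotypes, but the single lowest arrays were at time 48 in wild type (788) and at time 24 in PKBa-/- (821).

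Cavin1 fell at time 6, with changes of -0.56 ± 0.19 in wild type (adjusted p = 0.02) and -0.49 ± 0.19 in PKBa-/- (0.04), and both calls were lost with pair averages (0.26 and 0.31). The wild type call was also lost without wild type time 0 replicate 1 (adjusted p = 0.07) or replicate 2 (0.072), or time 6 replicate 3 (0.06). The PKBa-/- call was lost without PKBa-/- time 0 replicate 1 (0.1) or replicate 2 (0.14), or time 6 replicate 3 (0.081) or replicate 4 (0.11). At time 48 Cavin1 changed by -0.32 ± 0.19 in wild type (adjusted p = 0.21) and 0.19 ± 0.19 in PKBa-/- (0.51), and the difference of 0.51 ± 0.27 did not pass (0.22). With the replicate number as a block Cavin1 in wild type passed at times 24 (adjusted p = 0.021) and 48 (0.02), as did the difference at time 48 (0.015). Its other probe sets ranged from 47.3 to 119 and from 64.8 to 114 and were not tested.

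Cavin3, a cavin that joins the coat through cavin-1, fell in both genotypes at time 6, and at time 48 it was below its starting level in wild type while its PKBa-/- arrays overlapped those of time 0. In wild type its signals were 564, 555, 349 and 299 at time 0, 444 and 444 at time 2, and 255, 242, 173 and 168 at time 6. They were 306, 294, 215 and 229 at time 24 and 283, 282, 161 and 166 at time 48. As with Cavin1, replicates 1 and 2 were the higher pair of every wild type group of 4. In PKBa-/- the signals were 304, 328, 260 and 286 at time 0, 258 and 275 at time 2 and 126, 105, 101 and 126 at time 6. They then read 323, 270, 191 and 237 at time 24 and 311, 302, 305 and 252 at time 48. All wild type arrays of time 48 lay below the lowest wild type array of time 0.

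At time 6 Cavin3 fell, with changes of -0.94 ± 0.17 in wild type (adjusted p = 6.9e-05) and -1.16 ± 0.17 in PKBa-/- (2.4e-06). In wild type it was still down, at -0.66 ± 0.17 at time 24 (adjusted p = 0.0048, 0.2 with pair averages) and -0.89 ± 0.17 at time 48 (0.00023, 0.078 with pair averages). In PKBa-/- the change was -0.20 ± 0.17 at time 24 and -0.01 ± 0.17 at time 48 (adjusted p = 0.46 and 0.98). The difference between genotypes at time 48 was 0.88 ± 0.25 (adjusted p = 0.014), 0.87 within replicates 1 and 2 and 0.89 within replicates 3 and 4, but it did not pass with pair averages (0.41). Genes that passed in that direction made up 8.67% of those tested.

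**Figure D3:**
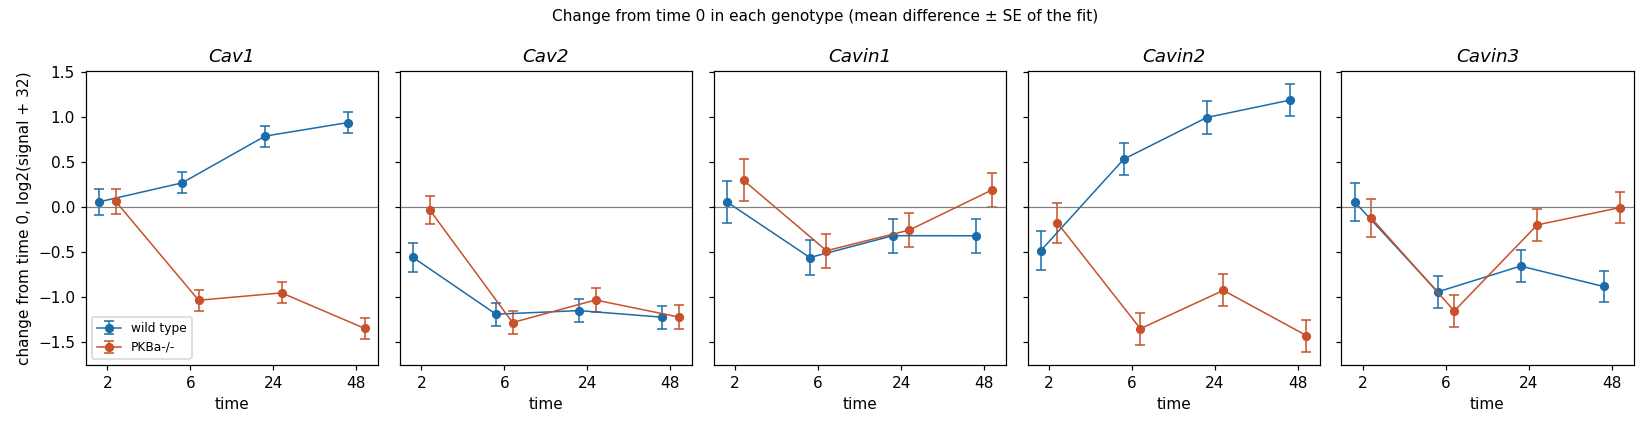
Change from time 0 in log2(signal + 32), mean difference ± SE of the fit, for each gene in wild type (blue) and PKBa-/- (red) at times 2, 6, 24 and 48. The genotypes diverge for Cav1 and Cavin2 and overlap for Cav2 from time 6 on. The bars also lie apart for Cavin3 at times 24 and 48 and for Cavin1 at time 48. Of these only the Cavin3 difference at time 48 passed in the fit, and it did not with pair averages.

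Time 2 was measured only in replicates 1 and 2, so its changes mix with the difference between replicate pairs. In the fit Cav2 in wild type was the 1 member that passed, with a change of -0.56 ± 0.16 (adjusted p = 0.011, 0.32 with pair averages), beside 17.9% of all genes in either direction and 15.3% in PKBa-/-, where no member passed. The call was lost without either array of that group (0.13 without replicate 1, 0.059 without replicate 2). Within replicates 1 and 2 alone Cav2 changed by -0.37 in wild type (adjusted p = 0.00047) and by -0.28 in PKBa-/- (0.0072), and Cavin2 by -0.54 and -0.45 (5e-04 and 0.0033). By the same comparison Cavin3 changed by -0.31 and -0.22 (adjusted p = 0.0045 and 0.048), and Cav1 by 0.01 and -0.01. Cavin2 in wild type was thus lower at time 2 than at time 0 within those replicates, before its rise.

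Counted by time, 4 of the 5 genes passed in wild type and all 5 in PKBa-/- at time 6, beside 36.3% and 40.4% of all tested genes, and 4 and 3 passed at time 24, beside 27.1% and 26.5%. The difference between genotypes passed for 2 members, Cav1 and Cavin2, at time 6 and again at time 24, beside 8.81% and 8.24% of all genes. Pair averages ended the time 6 calls of Cavin1 in both genotypes and of Cavin2 in wild type. They also ended the time 24 calls of Cavin2 in both genotypes and of Cavin3 in wild type, and the Cavin2 difference at time 6. Over the 4 later times together, limma's F test passed for 4 of the 5 genes in wild type and for all 5 in PKBa-/-, where 62.3% and 63% of all tested genes passed, so these shares say little about the family. Cavin1 in wild type was the exception (adjusted p = 0.055). With pair averages the tests of Cavin3 in wild type (0.053) and Cavin1 in PKBa-/- (0.31) did not pass either. The F test of the difference between genotypes passed for Cav1 (adjusted p = 3.3e-12), Cavin2 (5.5e-10) and Cavin3 (0.0048), beside 21.7% of all genes, and not for Cav2 (0.24) or Cavin1 (0.53). With pair averages it passed for Cav1 (0.0013) and Cavin2 (0.0068) and not for Cavin3 (0.58). Cav1 and Cavin2 passed all 3 F tests in each of 49 alternative settings, which refit the same arrays and add no independent support. Cavin2 was among the tested genes only through its wild type signal. Its PKBa-/- signals from time 6 on were close to the array background, so its F tests in PKBa-/- and of the difference are no evidence for a size.

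**Figure D4:**
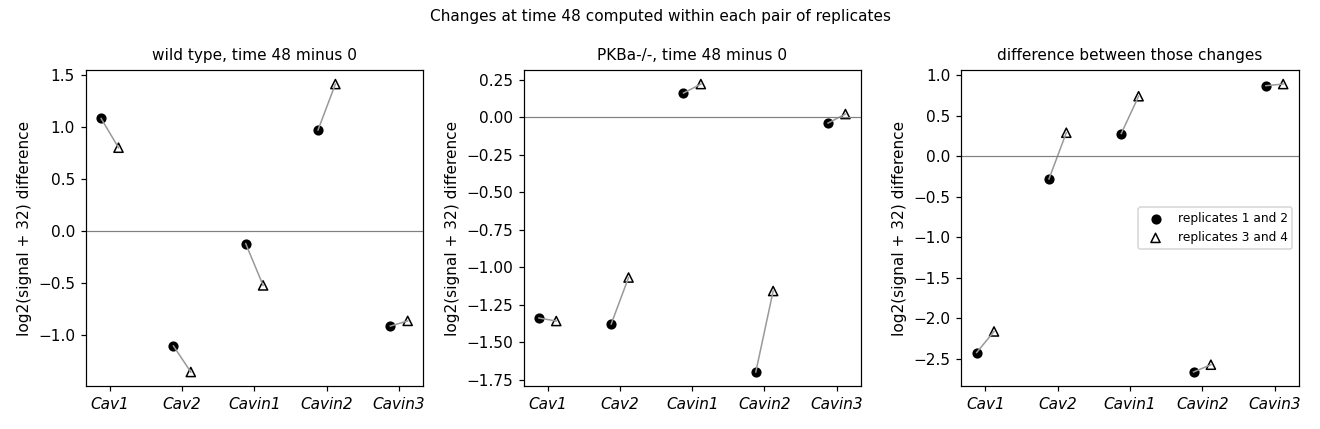
Change from time 0 to time 48 in wild type (left), in PKBa-/- (middle) and the difference between those changes (right), in log2(signal + 32), computed within replicates 1 and 2 (circles) and within replicates 3 and 4 (triangles). In the right panel Cav2 lies on either side of 0 in the 2 pairs, and the other 4 genes have the same sign in both.

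The genotype difference, by which the family was chosen, is given as a description. The share of all genes whose genotypes did not overlap was not counted, and 65.2% of tested genes passed for the difference averaged over times. With 2 arrays per genotype at time 2, a lack of overlap there says little. Cavin2 was higher in wild type than in PKBa-/- in every array at each time, by a ratio of mean signals of 10.5 at time 0 and 8.87 at time 2. No ratio is given for the later times, because the PKBa-/- means there (47.68, 76.81 and 43.66) were at or near the level of the dim Cav3 and Cavin4 probe sets and may be background. The order of Cav1 turned over without overlap: its PKBa-/- mean was 1.28 times the wild type mean at time 0 and 1.29 times at time 2, and the wild type mean was 1.97, 2.66 and 4.01 times the PKBa-/- mean at times 6, 24 and 48. At none of the 5 times did the Cav1 signals of the genotypes overlap. Cav2 was higher in all wild type arrays at each time, with ratios from 1.1 at time 2 to 1.99 at time 6. Cavin3 was higher in wild type without overlap at times 2 and 6 (ratios 1.67 and 1.83) and overlapped at the other times. For Cavin1 the genotypes overlapped at times 0, 6, 24 and 48, and at time 2 both PKBa-/- arrays (1717 and 1633) lay above both wild type arrays (1524 and 1620).

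Averaged over the 5 times, the PKBa-/- minus wild type difference was -4.43 ± 0.09 for Cavin2, -0.72 ± 0.06 for Cav1, -0.54 ± 0.06 for Cav2, -0.31 ± 0.08 for Cavin3 and 0.03 ± 0.09 for Cavin1. Of all tested genes 65.2% passed for this difference. It was larger within replicates 3 and 4, which lack time 2, than within replicates 1 and 2 for Cavin2 (-5.16 against -4.15), Cav1 (-1.07 against -0.65) and Cav2 (-0.93 against -0.32), and smaller for Cavin3 (-0.02 against -0.46). In such bulk samples fewer cells of a type and less RNA per cell cannot be told apart.

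Ordered by mean level, Cav1 was highest in wild type at time 48 (2518 ± 403, SD, n = 4 arrays) and at time 24 (2243 ± 51.9), groups that overlap each other and no other. It was lowest in PKBa-/- at times 24 (844.6 ± 156), 6 (794.1 ± 135) and 48 (628.7 ± 65.9), each overlapping its neighbour in the order. For Cavin2 the order ran from wild type time 48 (4270 ± 678) to PKBa-/- time 48 (43.66 ± 7.63). The largest step in it, as a ratio, was between wild type time 2 (1309 ± 135) and PKBa-/- time 0 (175.5 ± 49.9). Cav2 was highest in wild type at time 0 (378.5 ± 69.2), apart from every other group, and lowest in PKBa-/- at time 6 (74.07 ± 10.5). Cavin1 had no gap between any neighbours in its order, from 1675 ± 59.2 in PKBa-/- at time 2 to 964 ± 110 in PKBa-/- at time 6. In the order of Cavin3 the single gap set PKBa-/- at time 6 (114.4 ± 13.5) below wild type at time 6 (209.3 ± 45.2) and the rest.

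The muscle relatives of the family, Cav3 and Cavin4, were at the level of dim probe sets. Cav3, the caveolin of striated muscle, ranged from 43.5 to 65.3 over the 36 arrays, and Cavin4, the muscle cavin, from 33.4 to 60.5.

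Likeness of pattern was measured by Pearson correlation of log2 values over the 36 arrays, which share groups and replicate pairs, and is given as a description. Among the members Cav1 and Cavin2 were alike (r = 0.794, and 0.867 after each genotype's mean was removed), and so were Cavin1 and Cavin3 (0.772 and 0.808). Cav1 and its chromosomal neighbour Cav2 were less so (0.503 and 0.296). Outside the family the genes most like Cavin2 over all arrays were Slc9a3r1, a scaffold of membrane transporters (0.981), the IGF-binding protein gene Igfbp6 (0.979) and Serpinb6b (0.979). For Cav1 they were the adaptor gene Skap2 (0.882), the proton pump subunit gene Atp6v1b2 (0.879) and Ccdc80 (0.866). With genotype means removed, Gbp2b, a guanylate-binding protein gene, came second for Cav1 (0.815) and first for Cavin2 (0.839), and Pdgfc, a platelet-derived growth factor gene, came first for Cav1 (0.875).

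Cav2 was most like Dbndd2 (0.902), Fbxo6 (0.894) and Scarb1, the receptor of high-density lipoprotein (0.883), and after removal of genotype means like Lgals9, a galectin gene (0.918). Cavin1 was most like the mannosidase gene Man2c1 (0.889) and Prkci, an atypical protein kinase C gene (0.867). Cavin3 was most like Cr1l, a complement regulator gene (0.899), and after removal of genotype means like Ilk, the integrin-linked kinase gene (0.913), and Pea15a (0.913).

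To place the coat genes among the other genes of caveolae and rafts, lists of related genes were read in the same fit. Of 16 tested genes of the caveolar neck and of caveolar traffic, 10 were higher and 4 lower in PKBa-/- averaged over times, beside 36.6% and 28.6% of all tested genes, with a median difference of 0.19 against 0.03 for all. The largest were Dnm1, a dynamin that pinches off vesicles (1.29 ± 0.06, adjusted p = 4.9e-18), Snap23, a membrane fusion protein (0.54 ± 0.07, 9.3e-08), and Pacsin3, a membrane-bending protein (0.50 ± 0.04, 1.3e-12). Ehd2, the ATPase that holds caveolae at the surface, differed by -0.13 ± 0.04 (adjusted p = 0.0084). Its relative Ehd3 rose at time 48 in wild type (0.47 ± 0.14, adjusted p = 0.01) and in PKBa-/- (0.93 ± 0.14, 3.7e-06). At that time 1 gene of the list rose and 3 fell in wild type, and 4 rose and 3 fell in PKBa-/-, while with pair averages none passed in wild type and 1 in PKBa-/-. In the main fit 11.1% of all tested genes rose and 17.6% fell in wild type, and 14.3% rose and 15% fell in PKBa-/-.

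PKBa-/- had the higher level for 4 and the lower for 1 of 9 tested flotillin and membrane raft genes (3 and 1 with pair averages), beside 36.6% and 28.6% of all genes. Flot1, a flotillin of non-caveolar rafts, was higher by 0.45 ± 0.04 (adjusted p = 1.3e-12) and the raft proteoglycan gene Gpc1 by 1.19 ± 0.13 (8.7e-10), while S100a10, a partner of annexin A2, was lower (-0.42 ± 0.06, 5.7e-07). Stom, a caveolin-like hairpin protein of rafts, rose in wild type at time 48 (0.85 ± 0.15, adjusted p = 7.9e-05) and changed by -0.01 ± 0.15 in PKBa-/-, a difference of -0.86 ± 0.22 (0.0064), but no gene of the list passed either comparison with pair averages. Of 20 clathrin coat genes, the other main route of endocytosis, 9 were higher and 5 lower in PKBa-/- (7 and 4 with pair averages), beside 36.6% and 28.6% of all genes. The sorting nexin gene Snx9 was higher by 1.00 ± 0.04 (adjusted p = 6e-21), and Hip1, a clathrin adaptor, was lower (-0.69 ± 0.06, 1.4e-12).

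Genes of cholesterol synthesis and transport, which supply the lipid that caveolins bind, fell more often than they rose. At time 48, 13 of 18 tested genes fell and 1 rose in wild type, with a median change of -0.70 against -0.02 for all genes, and 10 fell and 2 rose in PKBa-/- (median -0.42 against 0.00). Of all tested genes 17.6% fell and 11.1% rose in wild type, and 15% fell and 14.3% rose in PKBa-/-. Fdps, an enzyme of isoprenoid synthesis, fell in both genotypes (-1.85 ± 0.18 in wild type, adjusted p = 4.2e-09, and -1.41 ± 0.18 in PKBa-/-, 4.3e-07). Hmgcs1, an early enzyme of the same pathway, did too (-1.71 ± 0.20 and -0.80 ± 0.20, 8.4e-08 and 0.0027). With pair averages 10 genes fell and none rose in wild type, and 3 fell and 1 rose in PKBa-/-. At time 24, 13 fell and 1 rose in wild type, against 3 and 2 in PKBa-/- (medians -0.55 and -0.15), and the difference between genotypes in the change passed upward for 10 genes and downward for 1. Of all tested genes 27.1% in wild type and 26.5% in PKBa-/- passed at that time in either direction, and 8.24% for the difference. The list was not counted with pair averages at time 24. At time 48 the difference passed upward for 6 genes and downward for 1, beside 8.67% and 5.63% of all tested genes. With pair averages it passed for none of the list at time 48.

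Actin and contractile genes of the serum response factor program, which build the cytoskeleton that caveolae are linked to, also fell at time 48. In wild type 14 of 17 fell and in PKBa-/- 13 of 17, beside 17.6% and 15% of all tested genes, with none rising. The medians were -0.62 and -0.66, against -0.02 and 0.00 for all genes. With pair averages 7 of 17 fell in each genotype. Tagln, the actin-binding protein transgelin, changed by -2.14 ± 0.11 in wild type and -2.01 ± 0.11 in the knockout (adjusted p = 5.8e-16 and 1.3e-15), and Acta2, smooth muscle actin, by -1.81 ± 0.10 and -0.81 ± 0.10 (8.2e-15 and 2.3e-07). Among 17 kinases, phosphatases and receptors that bind or modify caveolin, 8 were higher and 3 lower in PKBa-/- (6 and 3 with pair averages), beside the same 36.6% and 28.6%. Pdgfrb, a receptor of platelet-derived growth factor, was higher by 1.32 ± 0.09 (adjusted p = 7.1e-14), and Egfr, the receptor of epidermal growth factor, was lower (-0.58 ± 0.06, 1.6e-09).

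Of 15 transcription factors reported to act on caveolar genes, 4 were higher and 7, counting Gata6, lower in PKBa-/-, beside 36.6% and 28.6% of all tested genes. Gata6, a factor of mesoderm and endoderm derivatives, is among the lower ones, but like Cavin2 it passed the filter through wild type alone. Its mean signal was 2250 ± 735 there and 70.9 ± 15.0 in PKBa-/- (SD, n = 18 arrays each). Its difference is therefore not given, and its place among the 7 is no support. The largest of the others were Klf4 (-1.14 ± 0.09, adjusted p = 5.7e-13), Srf (0.75 ± 0.04, 1.4e-16) and Mrtfa (-0.50 ± 0.04, 8.5e-12). Gata6 rose at time 48 in wild type (0.68 ± 0.23, adjusted p = 0.026), where with pair averages no gene of the list rose. For the genotype difference pair averages left 1 higher and 6 lower factors, a count from which Gata6 was not left out.

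Markers of other cells moved with some of these genes, and their part in the results was not tested. The 11 fibroblast markers had summed signals of 53500 to 67100 in wild type and 62700 to 72200 in PKBa-/- arrays, but were not alike one by one. Averaged over times, 8 were higher and 3 lower in PKBa-/- (7 and 3 with pair averages), beside 36.6% and 28.6% of all tested genes. Thy1 was higher by 2.43 and Dcn differed by -3.15, and the lowest group mean of Pdgfrb was 82. Mesothelial markers, 8 of 10 listed, summed to 6480 to 10600 in wild type and 365 to 489 in PKBa-/-, which is the direction of Cavin2. Not all shared it: mean signals in wild type and PKBa-/- were 116 and 115 for Krt8 and 29.8 and 29.1 for Krt18. The 10 endothelial markers went from a mean sum of 1080 at time 0 to 2110 at time 48 in wild type and from 1040 to 953 in PKBa-/-, the directions of Cav1 and Cavin2. Of the 3 that were tested, only Kdr passed in wild type at time 48, upward (1.65 ± 0.15, adjusted p = 4.3e-10), beside 11.1% of all tested genes. Eng (0.04 ± 0.10, adjusted p = 0.79) and Flt1 (0.06 ± 0.13, 0.77) did not pass. The direction of the sum is thus not one that the list shared. The group means of Pecam1 (43.4 to 55.8), Cdh5 (49.9 to 65.5) and Vwf (16.3 to 20.0) stayed dim.

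The 8 smooth muscle markers summed to 13800 at time 0 and 4040 at time 48 in wild type, and to 15900 and 7450 in PKBa-/-, the direction of Cav2. Acta2 and Tagln fell in both genotypes, as given above. Des did not pass at time 48 (-0.29 ± 0.16 in wild type, adjusted p = 0.19, and -0.08 ± 0.16 in PKBa-/-, 0.78). Smtn fell in wild type (-0.36 ± 0.10, adjusted p = 0.0095) and changed by 0.25 ± 0.10 in PKBa-/- (0.071). Myh11 was dim throughout (group means 55.3 to 65.8). The adipocyte markers, 10 of 12 listed, summed to 2910 to 6090 in wild type and 1420 to 2490 in PKBa-/-. In wild type most of that was Lpl, while the group means of Adipoq (17.6 to 21.6) and Cd36 (15.3 to 17.1) were dim. Macrophage markers (7 genes) summed to 551 to 1090 in wild type and 424 to 677 in PKBa-/-, epithelial markers (5) to 322 to 409 and 296 to 422, and skeletal muscle markers (5) to 228 to 299 and 242 to 329. None of the markers was at a signal of 0.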

How the data were processed

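RNA of 36 samples was measured, and the deposited table gives 1 linear intensity (signal) per probe set and array; the authors' summary and normalization of the signals are not given in the sources used here. Probe sets were named from the platform annotation, and probe sets with 1 gene were kept (20380 of 22690; 691 had several genes, 1555 none and 64 were controls). The brightest probe set stood for each of 12393 genes, as log2(signal + 32). The 40% of genes with the lowest mean were left out, which left 7436. A linear model with 10 group means was fitted with limma 3.58.1 (R 4.3.3; 26 residual and 5.4 prior degrees of freedom), and p-values were adjusted by Benjamini-Hochberg within each contrast, two-sided. The procedure was tested on simulated data. Deviations of same-numbered arrays correlated between time 0 and times 6, 24 and 48 in wild type (0.508 to 0.705) and times 6 and 48 in PKBa-/- (0.128 to 0.593). A fit with the replicate number as a block is therefore given where it changes a call. At time 24 in PKBa-/-, at time 2 and between genotypes some correlations were at most 0.1. Within and between genotypes the same-numbered array was the best match in 18 of 40 comparisons, so the numbers do not establish a paired design.

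The members, gene lists, tests and naming rule were chosen with earlier results of these data known. Named from each list were up to 4 genes with the largest genotype difference and up to 2 with the largest change at time 48 among those that passed, of which a part is given, and for each member the 3 genes of highest correlation. Ehd2, Gata6 at time 48 and the dim markers are named as members of their lists.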

Additional observations from a re-analysis of the deposited data

Results flagged for a closer look

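Among 40 groups of 4 arrays, 2 held an array far from the other 3, and chance alone marks about 1 group in 20. Cav1 in PKBa-/- at time 48 read 727 in replicate 2, above 586 to 607 in the other 3. Cavin3 in PKBa-/- at time 48 read 252 in replicate 4, below 302 to 311 in the other 3.

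The change from time 0 differed between genotypes, PKBa-/- minus wild type, by limma's test of the difference itself for Cav1 at times 6 (-1.31), 24 (-1.74) and 48 (-2.29), for Cavin2 at the same times (-1.88, -1.92 and -2.62) and for Cavin3 at time 48 (0.88). Of these, pair averages ended the call of Cavin2 at time 6 (adjusted p = 0.054) and that of Cavin3 (0.41). None of these tests is independent of the choice of members, which was made with the genotype difference known. Those of Cavin2 also rest on a gene that was tested only through its wild type signal.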

How the results depend on the processing

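Limma's F test passed for 4633 genes in wild type, 4681 in PKBa-/- and 1614 for the difference between genotypes, and 4845 passed for the genotype difference averaged over times. With pair averages the first 3 counts were 1482, 1860 and 130, and with a random pair effect (estimated correlation 0.66) they were 2383, 2544 and 501. Within replicates 1 and 2 alone 3952 genes passed for the difference between genotypes. With every probe set as its own row 7058, 7072 and 7645 probe sets passed in wild type, in PKBa-/- and for the averaged genotype difference. Leaving out 1 array at a time gave 4190 to 4747, 4260 to 4771, 1403 to 1734 and 4603 to 4947. With the replicate number as a block the counts were 5301, 5222, 2393 and 5171, and among the members that block changed 4 calls at single times, given beside the results: Cav1 in wild type at time 6 (0.022), Cavin1 in wild type at times 24 (0.021) and 48 (0.02) and its difference at time 48 (0.015). The averaged genotype difference of Cavin1, 0.03, turned to -0.004 within replicates 3 and 4, -0.006 without PKBa-/- time 24 replicate 1 and -0.012 without wild type time 48 replicate 4 (leaving out single arrays, its range was -0.012 to 0.057). Cavin3 in wild type at time 2 turned from 0.06 to -0.312 within replicates 1 and 2 (adjusted p = 0.0045). The cause of these turns was not tested. The offset sets the size of the Cavin2 difference, since PKBa-/- signals lie near it: the averaged value was -4.08 with an offset of 64. Averaging a gene's probe sets moved the averaged Cav2 difference from -0.545 to -0.257 and ended the Cav2 call in wild type at time 2 (adjusted p = 0.069). It made Cavin1 pass in wild type at times 24 (0.00084) and 48 (0.00044) and in the difference at time 48 (0.00079). Quantile normalization made Cav1 pass in wild type at time 6 (0.002), and leaving out no genes (0.064) or centring on the array median (0.055) ended the Cavin1 call in PKBa-/- at time 6. An offset of 16, leaving out the lowest 20% of genes and an intensity trend changed no member's call.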
